A study of Homo sapiens with 10 samples.

Results

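The collagen genes are the 44 genes, of 20052 protein-coding genes in the RefSeq table of GRCh38, whose symbols are COL, a number, A and a number. Sites bound by ZEB1 were given to a collagen gene when the middle of the site lay in the gene or within 10 kb of either of its ends. This linked 163 of 52981 consensus sites, 121 of them inside a collagen gene and 42 in a flank. For 12 of the 163, another protein-coding gene overlapped the site or was nearer, and 3 sites belonged to 2 collagen genes each. Sites were found at 38 of the 44 genes, with a median of 4 sites a gene and up to 14 at COL4A2. COL3A1, COL4A3, COL5A3, COL6A5, COL6A6 and COL10A1 had none.

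ZEB1 occupancy was measured by CUT&RUN, which uses an antibody to direct a nuclease to the places a protein occupies in chromatin, in human breast cancer cells labelled MDA, Er-/Pr-/Her2-. The 8 libraries used here came from 4 conditions with 2 libraries each: untreated cells (control) and cells exposed to 300 nM eribulin, a microtubule inhibitor (spelled Erubilin in the sample labels), for 24, 48 or 72 h. The untreated libraries carry the line name MDA_Parental and the treated ones MDA_ERI, so the line name and the drug cannot be told apart, and the 3 exposure times share 1 control whose own time is not given. The 2 IgG libraries of untreated cells were not analysed here, the sample descriptions also mention Tn5, and no marker of cell identity can be read from ZEB1 occupancy.

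Collagens are triple-helical proteins of the extracellular matrix. Fibrillar collagens build the banded fibrils of stroma, bone and cartilage, type IV collagen forms the sheet-like network of basement membranes beneath epithelia, and type VI collagen forms beaded filaments between them. ZEB1 is a zinc finger protein that binds E-box sequences such as CAGGTG and CAGGTA, represses many epithelial genes, and is known as a driver of the epithelial to mesenchymal transition, during which cells take on features that include production of fibrillar collagen.

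The type IV genes lie in head-to-head pairs, so that 1 short stretch of DNA starts a gene on each side. The stretches between the genes of the first 2 pairs are shown in full, and of the stretch between COL4A6 and COL4A5 only the part in a ZEB1 site, followed by the part of the promoter of COL5A1 and of COL12A1 that lay in a ZEB1 site. COL4A1 and COL4A2 encode the chains of the ubiquitous basement membrane network, COL4A3 and COL4A4 chains of the kidney glomerulus, cochlea and eye, and COL4A5 and COL4A6 chains encoded on the X chromosome. Sequences are from RefSeq (GRCh38.p14), 5′ to 3′, with copies of CACCT on either strand in capitals.
COL4A1 and COL4A2: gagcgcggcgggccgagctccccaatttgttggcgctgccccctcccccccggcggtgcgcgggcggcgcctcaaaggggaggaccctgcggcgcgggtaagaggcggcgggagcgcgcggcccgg
COL4A4 and COL4A3: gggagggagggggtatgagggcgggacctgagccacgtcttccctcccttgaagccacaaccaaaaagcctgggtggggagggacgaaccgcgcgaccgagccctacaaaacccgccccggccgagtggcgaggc
COL4A6 and COL4A5: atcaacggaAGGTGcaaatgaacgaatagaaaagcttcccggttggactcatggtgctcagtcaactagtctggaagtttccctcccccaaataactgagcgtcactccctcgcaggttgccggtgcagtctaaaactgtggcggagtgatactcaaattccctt
COL5A1: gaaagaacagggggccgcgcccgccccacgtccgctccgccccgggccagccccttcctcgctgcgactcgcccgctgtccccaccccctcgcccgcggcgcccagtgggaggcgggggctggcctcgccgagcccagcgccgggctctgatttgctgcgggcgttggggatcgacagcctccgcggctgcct
COL12A1: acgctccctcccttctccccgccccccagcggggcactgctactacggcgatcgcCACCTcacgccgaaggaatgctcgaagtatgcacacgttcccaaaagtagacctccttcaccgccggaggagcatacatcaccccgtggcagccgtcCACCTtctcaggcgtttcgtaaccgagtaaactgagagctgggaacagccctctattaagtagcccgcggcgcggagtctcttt
The first stretch (chr13:110307158-110307283, plus strand, 126 bases) lay wholly in a ZEB1 site and held no CACCT. The second (chr2:227164489-227164623, plus strand, 135 bases) held none either and lay in no site. The third (chrX:108439625-108439789, plus strand, 165 bases) is a ZEB1 site too weak to be tested, and this part of the stretch held 1 copy. The COL5A1 stretch (chr9:134641553-134641745, plus strand, 193 bases) had no copy and that of COL12A1 (chr6:75206054-75206289, minus strand, 236 bases) had 2.

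Both strands were also searched for CAGGTG (which contains CACCT when read on the opposite strand), for CAGGTA (which does not) and for TGANTCA, the AP-1 site. None occurred in the 5 stretches. In the 250 bases before a start site, CACCT was found in 23 of the 44 collagen promoter windows and in 45.4% of the 35116 windows of all genes. CAGGTG was found in 5 collagen windows (17.5% of all), CAGGTA in 1 (7.99% of all) and TGANTCA in 1 (6.57% of all). The windows of COL4A3 and COL4A4 were among those with CAGGTG and CACCT, in bases outside the stretch printed above. The 44 collagen windows belonged to 32 of the 44 genes, since the RefSeq promoter table does not hold every gene. CACCT was added to the search after the sequences had been read, and the absence of a string says only that these letters are not in the window.

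Of the collagen promoters with a window, few were ZEB1 sites. A site overlapped 9 of the 44 collagen promoter windows (20.5%), those of 8 genes, against 36.7% of all windows. Genes without a window are left out of this share. COL5A2 and COL8A1 are among them, and each had a site across an end of the gene. Among the tested sites, 15.4% of those at collagen genes were within 1 kb of an end of a gene, 72.0% lay in gene bodies and 12.6% between genes. Over all 46436 tested sites these shares were 28.4%, 36.2% and 35.3%. Collagen genes are long, and this difference was not tested. Width (median 238 bp against 255 bp) and control signal (median 12.2 against 12.6 CPM, the TMM-normalised count per library size) were close to those of all sites.

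Counts in consensus sites came to between 1130706 and 3561455 per library, and collagen sites took 0.260% to 0.288% of them. Over all sites with 20 or more counts, the 2 libraries of a condition differed by less than counting noise (chi-square per degree of freedom 0.830 to 0.951). Over the collagen sites this value was 0.740 for control and 1.10 for 72 h, the highest. The fit took the 2 libraries of a condition as replicates. For what its p-values can say, each pair was counted as 1 sample, n = 1 per condition. All p-values below are edgeR quasi-likelihood values, Benjamini-Hochberg adjusted over all tested sites, and called means under 0.05. They compare these libraries and not the conditions, and the 95% intervals in brackets (exact binomial on pooled counts) cover counting error only. Fold changes are relative to the other sites, because TMM scaling centres all sites near 0. Scaling to the background level of the peak lists shifted the median of all sites by -0.93 after 24 h, -1.42 after 48 h and -1.496 after 72 h on the log2 scale. Of the collagen calls, 90.9%, 89.8% and 95.5% were then lower, against 40 of 80, 21 of 51 and 28 of 60 with TMM. Over all sites, 91.5%, 95.8% and 97.2% of the calls were then lower. A rise described below is therefore relative to other sites. The strongest sites of COL5A2 (24 h), COL4A2 and COL4A4 (48 h and 72 h), COL6A2 (24 h and 48 h) and COL8A1 (72 h) and a COL13A1 site (48 h and 72 h), called higher with TMM, had log2 values below 0 on that scale. Of these, COL4A2 at both times, COL4A4 after 48 h and COL8A1 were then called lower, and the others were not called.

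Peaks at collagen sites became fewer with exposure, as they did over all sites. Counts in consensus sites fell as well, from 3561455 and 3146228 in control to 1886419 and 1799143 after 24 h. They were 1346179 and 1380070 after 48 h, and 1207987 and 1130706 after 72 h. The part of these counts in the number of peaks was not tested. A deposited peak overlapped, by any length, 133 of the 163 collagen sites in control (81.6%), 91 after 24 h (55.8%), 64 after 48 h (39.3%) and 46 after 72 h (28.2%). Over all consensus sites the shares were 86.6%, 61.3%, 39.4% and 32.1%. All 4 lists held a peak at 32 collagen sites (19.6%, against 24.1% of all sites). The 48 h list alone held a peak at 15 of them (9.20%, against 3.08% of all), and the control list alone at 47.

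Of the 143 collagen sites that passed the filter on low counts, 40 were lower and 40 higher than control after 24 h, where 26.8% and 28.0% of all tested sites were called. At 48 h, 21 were lower and 30 higher (16.9% and 16.8% of all), and after 72 h 28 and 32 (17.0% and 18.9% of all). From 24 h to 72 h, 28 fell and 38 rose (16.4% and 19.4% of all). The collagen shares were 28.0% each way after 24 h, close to all sites, and differed most from them for rises from 24 h to 72 h (26.6%). The median log2 fold changes of the collagen sites, -0.02, -0.04, -0.01 and 0.15, stood beside medians of all sites of 0.02, -0.01, 0.00 and -0.01. The 20 sites that did not pass averaged 2.12 to 4.76 CPM and include every site of COL1A2, COL4A5 and COL25A1. Without replicate 2 of 72 h, 13 fell and 25 rose from 24 h to 72 h, and without replicate 1 of 72 h 17 fell. Under DESeq2's test 25 were lower and 22 higher after 24 h, 9 and 19 after 48 h, and 12 and 18 after 72 h.

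**Figure D1:**
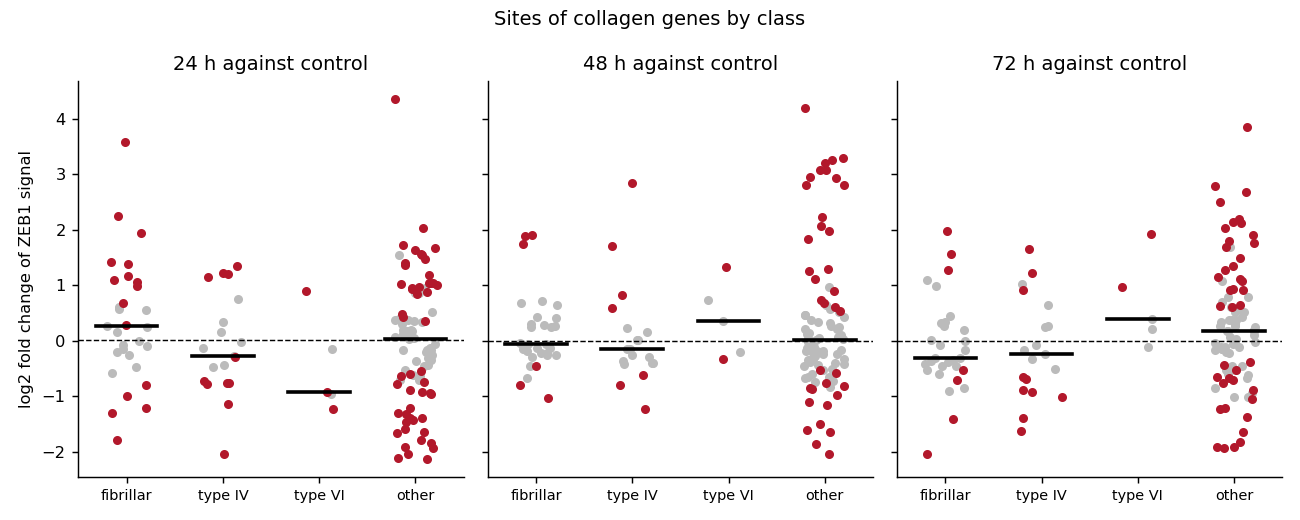
Log2 fold change of ZEB1 signal (vertical axis) at each tested collagen site against control after 24, 48 and 72 h, by class of collagen. Red points were called, grey points were not, thick bars are class medians, the dashed line is the median of all tested sites, and the 5 type VI points have medians of -0.93, 0.35 and 0.39 at the 3 times.

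Fibrillar collagen genes are 11 of the 44, and 30 of their 34 sites were tested. At 24 h, 5 sites were lower and 11 higher, with a median log2 of 0.26, and the sign of that median depended on 1 gene: without the 9 tested sites of COL5A2 it was -0.10, with 5 sites lower and 5 higher. At 48 h 3 were lower and 3 higher (median -0.06), and after 72 h 4 and 3 (median -0.30). Lower and higher calls were 16.7% and 36.7% of the class, 10.0% and 10.0%, and 13.3% and 10.0% at the 3 times. For all tested sites the shares were 26.8% and 28.0%, 16.9% and 16.8%, and 17.0% and 18.9%. The difference of the 24 h median from that of all sites, 0.24, was 0.13 without replicate 1 of control. Between 24 h and 72 h, 10 fibrillar sites fell and 4 rose (median -0.53). These were 33.3% and 13.3% of the class, against 16.4% and 19.4% of all tested sites. Without the sites of COL5A2, 4 fell and 4 rose (median -0.26). At 24 h COL1A1 gave 4 of the 5 lower calls and COL5A2 6 of the 11 higher calls.

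COL1A1 encodes the main chain of type I collagen, the chief fibril protein of bone, skin and tumour stroma. Its strongest site (chromosome 17, 50199858 to 50201018, inside the gene and 1193 bp from its end of higher coordinate) held 125 and 128 CPM in the control libraries, 53.4 and 55.0 after 24 h, 95.8 and 89.1 after 48 h and 90.9 and 83.3 after 72 h. The treated libraries all lay below both controls, lowest after 24 h. Relative to control, log2 was -1.22 after 24 h (-1.45 to -0.996; adjusted p = 2.74e-28), -0.45 after 48 h (adjusted p = 0.000109) and -0.53 after 72 h (adjusted p = 1.68e-05), and the rise from 24 h to 72 h was 0.69 (0.40 to 0.98; adjusted p = 2.77e-05). If separate cultures had a coefficient of variation of 0.2, the 24 h call would hold and those after 48 h (adjusted p = 0.382), 72 h (adjusted p = 0.253) and between times (adjusted p = 0.133) would not.

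The other 3 sites of COL1A1 lay in its flanks, and they are named here after their values were seen. The site at 50178156 to 50178688, nearest to the sarcoglycan gene SGCA, had 108 and 115 CPM in control, 57.5 and 53.9 after 24 h, 54.8 and 73.2 after 48 h and 65.8 and 71.3 after 72 h (log2 after 24 h -0.998, -1.23 to -0.78; adjusted p = 2.66e-19). It was lower in every treated library, as at 50209681 to 50209897, where control held 15.9 and 15.2 CPM and 24 h 6.16 and 6.47 (log2 -1.30; adjusted p = 6.21e-05). The last, at 50210342 to 50210650, fell from 22.9 and 24.1 CPM to 11.3 and 15.6 (log2 -0.80; adjusted p = 0.000964), a call that was lost without replicate 1 of 24 h (log2 -0.57; adjusted p = 0.083) and under DESeq2 (adjusted p = 0.0737). So all 4 sites of the gene were lower after 24 h, and their summed signal was 46.9% of control then, 66.9% after 48 h and 65.1% after 72 h. Its partner chain COL1A2 had 2 sites with 11.3 CPM in sum, too few counts to test.

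Type V collagen regulates the diameter of type I fibrils, and 2 of the genes of its chains had sites. COL5A2, a gene of 409 kb, had 10 sites, of which 9 were tested: 6 were higher and none lower after 24 h, and 6 fell and none rose from 24 h to 72 h. Its strongest site (chromosome 2, 189440985 to 189441497) spanned the gene's end of higher coordinate, with its middle 130 bp outside the gene. Control held 16.8 and 17.8 CPM there. Signal was 25.1 and 30.7 after 24 h, 23.9 and 17.4 after 48 h and 18.2 and 25.9 after 72 h. The 24 h libraries were above both controls (log2 0.69, 0.29 to 1.09; adjusted p = 0.00134), those of 48 h overlapped control, and those of 72 h were above it but not called (log2 0.34; adjusted p = 0.294). That call was lost under DESeq2 (adjusted p = 0.0961) and without replicate 2 of 24 h (log2 0.52; adjusted p = 0.081).

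Inside COL5A2, weaker sites showed larger differences (named after their values were seen). The site 189370805 to 189371029 went from 0.579 and 1.65 CPM in control to 10.3 and 17.2 after 24 h, and held 3.86 and 4.53 after 48 h and 4.33 and 4.63 after 72 h. With 7 pooled counts in control and 52 after 24 h, the log2 fold change was 3.58 (2.52 to 5.05; adjusted p = 4.31e-14). At 189393515 to 189393728 control held 7.24 and 7.92 CPM and 24 h 18.0 and 22.6, against 9.27 and 4.53 after 48 h and 5.19 and 6.48 after 72 h, so that only the 24 h libraries stood out (log2 1.41, 0.89 to 1.97; adjusted p = 2.89e-07; 72 h against 24 h -1.79, -2.77 to -0.94; adjusted p = 2.48e-05). Another site, at 189363716 to 189363815, had a log2 of 2.26 (1.23 to 3.51; adjusted p = 1.14e-05). The other 2 higher calls, at 189130115 (log2 1.05) and 189210307 (log2 1.16), were lost when 1 library was left out: without replicate 1 of control (adjusted p = 0.131) and without replicate 2 of 24 h (adjusted p = 0.244), respectively. Of the 6 falls from 24 h to 72 h, those at 189393515 and 189276372 (log2 -2.62; adjusted p = 7.11e-05) held when any 1 library was left out, and the other 4 were lost for at least 1 library (adjusted p up to 0.175). Summed over the gene, signal was 198% of control after 24 h, 104% after 48 h and 92.1% after 72 h.

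**Figure D2:**
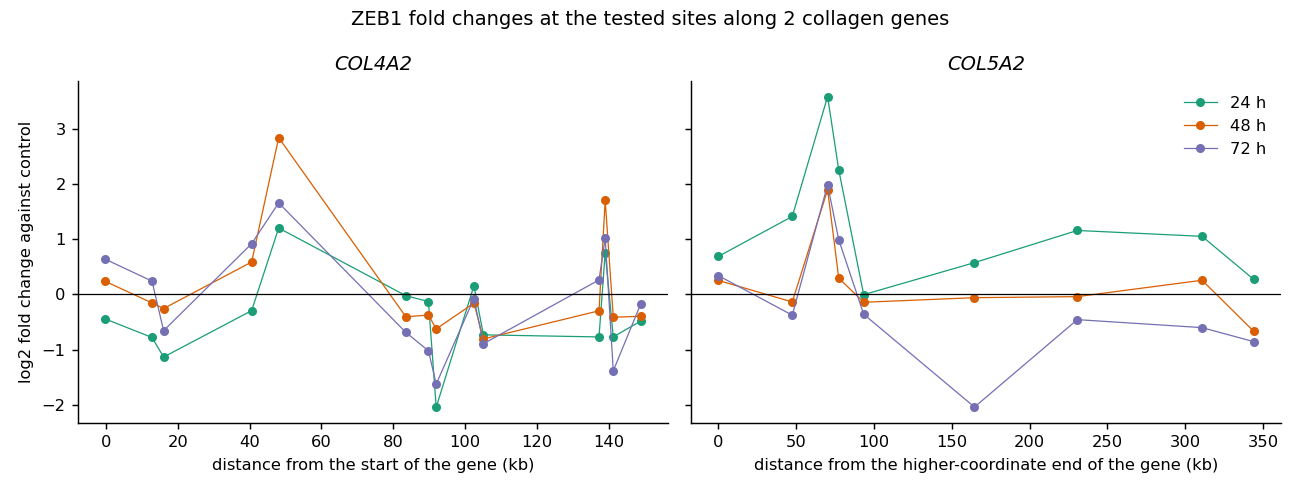
Log2 fold change of ZEB1 signal against control at each tested site (points, joined by lines for each time) by distance along COL4A2 and COL5A2 in kb. Along COL5A2 the 24 h line lies at or above the 48 h and 72 h lines at every site, while along COL4A2 neighbouring sites differ in direction, from -2.04 to 1.20 after 24 h.

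COL5A1, which encodes the partner chain, had 4 sites, all within 5 Mb of the end of chromosome 9. The strongest, 7359 bp beyond the gene (134851719 to 134852685), had 26.1 and 27.7 CPM in control, 21.6 and 23.2 after 24 h, 99.6 and 101 after 48 h and 83.1 and 75.9 after 72 h. The 24 h libraries were slightly below control, with no call (log2 -0.26, -0.66 to 0.12; adjusted p = 0.231), and every library of 48 h (log2 1.90, 1.62 to 2.19; adjusted p = 1.03e-34) and 72 h (log2 1.57, 1.26 to 1.88; adjusted p = 8.90e-21) was far above them. The promoter site of COL5A1, whose sequence is printed above, had between 8.33 and 13.9 CPM in all 8 libraries and was not called at any time (log2 -0.15, -0.12 and -0.41). A weak site 981 bp into the gene, named after its values were seen (134642711 to 134642862), had 3.48 and 2.64 CPM in control, 12.3 and 11.9 after 24 h, 3.86 and 6.04 after 48 h and 2.60 and 11.1 after 72 h. Its 24 h libraries were above both controls (log2 1.95, 1.18 to 2.81; adjusted p = 5.35e-07), a call that held under DESeq2 and when any 1 library was left out, and it was not called after 48 h or 72 h (log2 0.68 and 1.10; adjusted p = 0.328 and 0.0701).

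The remaining fibrillar genes belong largely to cartilage. COL11A1, a chain of cartilage fibrils that many carcinomas also make, had 1 site (chromosome 1, 102879598 to 102879902, in the gene) with 13.0 and 15.2 CPM in control, 33.4 and 26.4 after 24 h, 13.1 and 24.2 after 48 h and 14.7 and 5.55 after 72 h. It was highest after 24 h (log2 1.09, 0.68 to 1.51; adjusted p = 4.48e-07) and fell from 24 h to 72 h by 1.54 on the log2 scale (adjusted p = 3.30e-06). COL27A1, a cartilage collagen, rose in its body at chromosome 9, 114277438 to 114277686, from 10.7 and 12.9 CPM to 29.2 and 32.3 after 24 h (log2 1.39, 0.96 to 1.83; adjusted p = 3.52e-10), with 17.0 and 19.6 after 48 h and 18.2 and 13.9 after 72 h, both nearer control. The strongest sites of COL2A1, the cartilage fibril gene (log2 0.61, -0.01 to 1.23 after 24 h; adjusted p = 0.0725), and of COL24A1 (log2 -0.10, -0.47 to 0.27; adjusted p = 0.674) were not called. COL11A2's strongest site lay nearer RXRB and differed little after 24 h (log2 0.29, adjusted p = 0.0204). Its log2 was 0.12 without replicate 1 of control, and the call was lost under DESeq2 (adjusted p = 0.278). Of the gene's 4 tested sites, 2 were higher and 1 lower after 24 h. Read after their values were seen, a site at 33160924 rose (log2 0.99, adjusted p = 2.79e-10). The site at 33172753, inside the gene, fell (log2 -1.78, adjusted p = 0.00051).

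**Figure D3:**
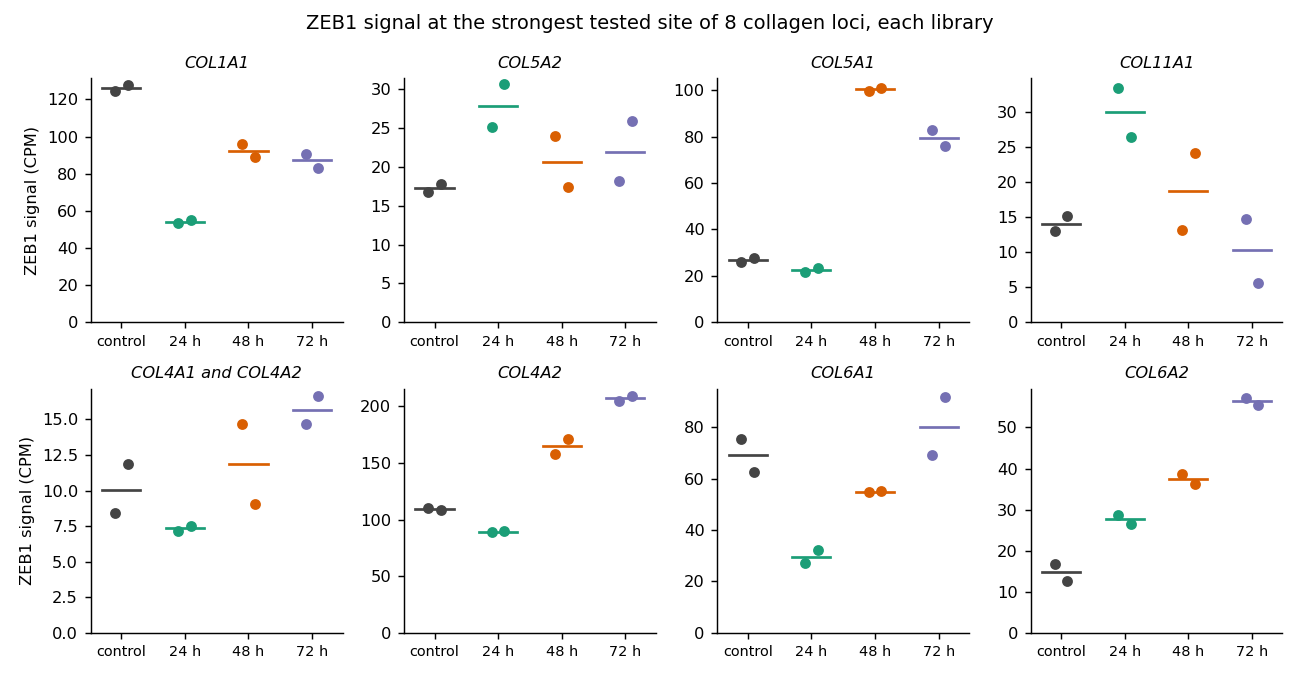
ZEB1 signal in CPM (vertical axes start at 0) in each of the 8 libraries at the strongest tested site of 8 collagen loci, with the pooled value of each condition as a line. COL1A1 and COL6A1 are lowest after 24 h, COL5A1 is high after 48 h and 72 h, and COL4A2 and COL6A2 are highest after 72 h (207 and 56.3 CPM).

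Among the basement membrane genes of type IV, 19 of 23 sites were tested and 14 of these belonged to COL4A2, 1 of them shared with COL4A1. At 24 h 7 were lower and 4 higher (median log2 -0.27), after 48 h 3 and 4 (median -0.16), and after 72 h 7 and 3 (median -0.24). Lower and higher calls were 36.8% and 21.1% of the class, 15.8% and 21.1%, and 36.8% and 15.8% at the 3 times. For all tested sites the shares were 26.8% and 28.0%, 16.9% and 16.8%, and 17.0% and 18.9%. Each of the 7 lower calls after 24 h was in COL4A2. Without the sites of COL4A2 the 5 others had 0 lower and 3 higher calls after 24 h and a median of 1.15, so the sign of the 24 h median depended on 1 gene. After 48 h and 72 h their medians were 0.018 and -0.33. The difference of the 48 h median from that of all sites, -0.15, was -0.29 without replicate 2 of control, -0.26 without replicate 1 of 48 h and -0.24 without either library of 72 h. All 14 COL4A2 sites lie within 5 Mb of the end of chromosome 13, and the part of that position in these values was not tested.

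COL4A1 and COL4A2 share the promoter site printed above (chromosome 13, 110306880 to 110307333). It had 8.40 and 11.9 CPM in control, 7.18 and 7.54 after 24 h, 14.7 and 9.06 after 48 h and 14.7 and 16.7 after 72 h. Values after 24 h were below and after 72 h above both controls, but neither difference was called (log2 -0.44, adjusted p = 0.233; log2 0.64, adjusted p = 0.092). The rise from 24 h to 72 h was 1.08 (0.33 to 1.86; adjusted p = 0.0115) and was lost under DESeq2 (adjusted p = 0.137), without replicate 1 of 24 h (adjusted p = 0.0598) and without replicate 2 of 72 h (adjusted p = 0.0936).

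The strongest type IV site was 40569 bp into COL4A2 (110347411 to 110348295), with 110.3 and 108.5 CPM in control, 88.8 and 90.0 after 24 h, 158 and 171 after 48 h and 205 and 209 after 72 h. Libraries of 24 h were below, and those of 48 h and 72 h above, both controls. The 24 h difference was small (log2 -0.29, -0.48 to -0.10; adjusted p = 0.00464) and was lost without replicate 1 of 24 h (adjusted p = 0.057) and under DESeq2 (adjusted p = 0.0875). The rise was 0.59 after 48 h (0.41 to 0.76; adjusted p = 1.28e-09) and 0.92 after 72 h (0.75 to 1.09; adjusted p = 4.70e-23). A site 91909 bp into the gene moved the other way: 110399028 to 110399359 had 37.4 and 34.3 CPM in control, 10.3 and 7.004 after 24 h, 30.9 and 15.9 after 48 h and 13.0 and 10.2 after 72 h. It was below both controls in all 6 treated libraries (log2 after 24 h -2.04, -2.62 to -1.52; adjusted p = 6.65e-17; after 72 h -1.62, -2.27 to -1.04; adjusted p = 5.86e-09). Its 48 h call (log2 -0.62; adjusted p = 0.00749) was lost without replicate 2 of 48 h (log2 -0.20; adjusted p = 0.62) and without replicate 1 of control (adjusted p = 0.056).

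Elsewhere in the gene lay a site that fell at every time (110412180 to 110412473, log2 -0.73, -0.81 and -0.89; each lost under DESeq2, with adjusted p = 0.0578, 0.0838 and 0.0508) and a site that fell after 72 h (110396886 to 110397165, log2 -1.02; adjusted p = 0.00012). The last call was lost without replicate 2 of 72 h (log2 -0.63; adjusted p = 0.0936). At 72 h, 6 of the 14 COL4A2 sites were lower and 2 higher than control, and from 24 h to 72 h 2 fell and 4 rose. Sites of the gene thus moved in both directions, and the sum over it was 68.6% of control after 24 h, 103% after 48 h and 107% after 72 h.

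The other type IV genes had few sites. COL4A4 had 1 (chromosome 2, 226995643 to 226996013, where the gene overlaps RHBDD1), with 12.5 and 11.2 CPM in control, 31.8 and 28.6 after 24 h, 23.9 and 18.1 after 48 h and 26.0 and 29.6 after 72 h. It was above both controls throughout (log2 1.34 after 24 h, 0.92 to 1.78; adjusted p = 1.38e-09; and 1.22 after 72 h, 0.72 to 1.72; adjusted p = 1.39e-05), but its 48 h call (log2 0.82) was lost without replicate 1 of 48 h (adjusted p = 0.206). COL4A6, an X-linked chain of some basement membranes, had 17.7 and 16.5 CPM in control at its strongest site (chromosome X, 108313029 to 108313300), 14.9 and 13.5 after 24 h, 6.95 and 7.55 after 48 h and 9.52 and 8.33 after 72 h. It fell by 1.23 on the log2 scale after 48 h (-2.02 to -0.53; adjusted p = 0.000868, and under DESeq2 adjusted p = 0.0685).

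Type VI collagen was represented by 5 tested sites of 8, all within 5 Mb of a chromosome end: 3 at COL6A1, 1 at COL6A2 and 1 at COL6A3. At 24 h 2 were lower and 1 higher (median log2 -0.93), after 48 h 1 and 1 (median 0.35), after 72 h 0 and 2 (median 0.39), and from 24 h to 72 h 3 rose and none fell (median 1.03). Without replicate 2 of control, the differences of these medians from those of all sites went from -0.94 to -0.29 after 24 h, from 0.36 to 0.90 after 48 h and from 0.39 to 0.999 after 72 h. COL6A1 and COL6A2 are neighbours on chromosome 21 and encode chains of the same trimer. The signal summed over the class was 67.2% of control after 24 h, 112% after 48 h and 153% after 72 h.

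COL6A1's strongest site, 7437 bp outside the gene (chromosome 21, 45973770 to 45974897), had 75.3 and 62.7 CPM in control, 27.2 and 32.3 after 24 h, 54.8 and 55.1 after 48 h and 69.2 and 91.6 after 72 h. It was lowest after 24 h (log2 -1.22, -1.53 to -0.92; adjusted p = 1.23e-16) and its 72 h libraries lay within and above the range of control, with no call (log2 0.21; adjusted p = 0.21). From 24 h to 72 h this was a rise of 1.43 (1.08 to 1.78; adjusted p = 3.60e-15). Its small deficit after 48 h (log2 -0.34; adjusted p = 0.0412) was lost without replicate 1 of control (adjusted p = 0.423) and without either library of 48 h or of 72 h (adjusted p from 0.0545 to 0.204). The 2 other COL6A1 sites were below control after 24 h too (log2 -0.93, adjusted p = 0.00424, and -0.95, adjusted p = 0.0564), and the first of these calls was lost without replicate 1 of 24 h (adjusted p = 0.0513).

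COL6A2, by contrast, gained signal 1113 bp beyond its end (46133728 to 46134194): 16.8 and 12.5 CPM in control, 28.7 and 26.4 after 24 h, 38.6 and 36.2 after 48 h and 57.1 and 55.5 after 72 h. All 6 treated libraries exceeded both controls and the 3 times did not overlap each other. Log2 was 0.90 after 24 h (0.49 to 1.31; adjusted p = 4.70e-05), 1.33 after 48 h (0.92 to 1.76; adjusted p = 4.11e-09) and 1.92 after 72 h (1.53 to 2.33; adjusted p = 1.37e-19). So the strongest sites of 2 genes of one trimer had opposite calls after 24 h, and both rose from 24 h to 72 h. COL6A3, the longest chain, had 10.7 and 8.90 CPM in control and between 8.21 and 14.8 in the treated libraries, with no call (log2 -0.14, 0.35 and 0.39).

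Compared with each other, the fibrillar class had a median above 0 after 24 h (0.26), and those of type IV (-0.27) and type VI (-0.93) were below it. Without COL5A2 the fibrillar median was -0.10, and without COL4A2 that of type IV was 1.15. Of the 5 type VI sites, the 3 at COL6A1 had log2 of -1.22, -0.93 and -0.95. Those at COL6A2 and COL6A3 had 0.90 and -0.14. Differences between classes were not tested, because sites of 1 gene are not independent. Summed signal at 24, 48 and 72 h was 98.1%, 100.0% and 88.2% of control for fibrillar genes, 77.7%, 103% and 106% for type IV genes and 88.0%, 104% and 103% for all collagen genes. Over all tested sites it was 93.7%, 101% and 101%. These class sums depended on single genes. Without the COL1A1 sites the fibrillar sum was 142%, 129% and 108% of control, and without those of COL5A2 86.8%, 99.7% and 88.3%. Without the COL4A2 sites the type IV sum was 160%, 99.8% and 106%.

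**Figure D4:**
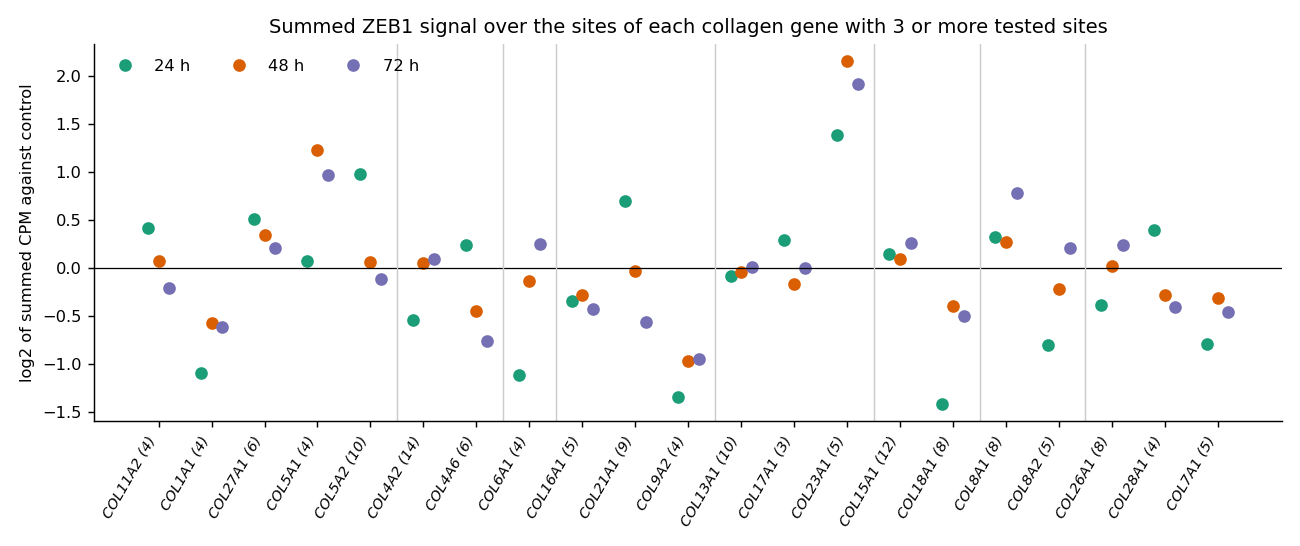
Log2 of the ZEB1 signal summed over the sites of a collagen gene at 24, 48 and 72 h relative to control, for genes with 3 or more tested sites, with the number of sites summed in brackets and grey lines between classes. COL1A1, COL9A2, COL16A1, COL18A1 and COL7A1 lie below 0 at all 3 times, where 0 is the control level. COL5A1, COL27A1, COL23A1, COL15A1 and COL8A1 lie above 0 at all 3.

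Many collagen sites were near chromosome ends, a difference from sites at large that was not tested. A distance under 5 Mb was found for 26.6% of tested collagen sites and for 12.5% of all, with 73.7% of type IV, 100% of type VI and 13.3% of fibrillar sites. The tested collagen sites near ends included 14 at COL4A2 and 7 at COL18A1. Type IV without the COL4A2 sites had 0% near ends. In the 38 collagen sites near ends, 13 were lower and 7 higher after 24 h, 5 and 13 after 48 h, and 10 and 13 after 72 h. All sites near ends were called lower and higher in 26.0% and 24.1% after 24 h, 12.8% and 30.8% after 48 h and 12.3% and 31.0% after 72 h. From 24 h to 72 h, 2 collagen sites near ends fell and 14 rose (median log2 0.71), where 10.5% and 33.1% of all sites near ends were called (median 0.38). Elsewhere 26 of 105 collagen sites fell and 24 rose (median -0.12), where 17.3% and 17.5% of all were called. The gains of COL5A1, COL6A2, COL20A1, COL23A1 and the main COL4A2 site all lay near ends. Those named at COL4A4, COL13A1, COL15A1, COL19A1 and COL27A1 lay elsewhere. Losses named after 24 h at COL4A2, COL6A1 and COL18A1 also lay near ends. The part of this position in the gains and losses was not tested.

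**Figure D5:**
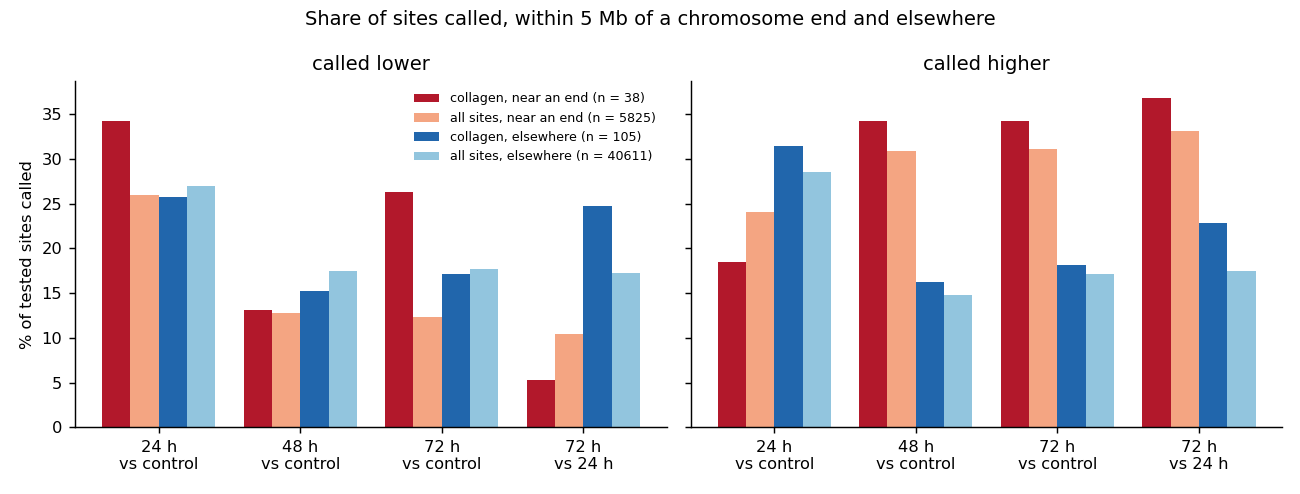
Percent of tested sites called lower (left) and higher (right) in each comparison, for collagen sites and all sites within 5 Mb of a chromosome end and elsewhere. For calls that were higher from 24 h to 72 h, collagen sites near ends (14 of 38) stand beside 33.1% of all sites near ends.

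Fibril-associated collagens sit on the surface of fibrils and had 27 tested sites: 5 were lower and 9 higher after 24 h, 5 and 10 after 48 h and 5 and 9 after 72 h. Lower and higher calls were 18.5% and 33.3% of the class, 18.5% and 37.0%, and 18.5% and 33.3%. For all tested sites the shares were 26.8% and 28.0%, 16.9% and 16.8%, and 17.0% and 18.9%. COL9A2, a cartilage member, had a summed signal of 39.4%, 51.0% and 51.8% of control, with 3 of its 4 sites lower at each time. Inside it, 40312540 to 40312960 on chromosome 1 had 22.6 and 29.4 CPM in control, 8.21 and 5.93 after 24 h, 13.1 and 9.82 after 48 h and 18.2 and 12.0 after 72 h, every treated library lying below both controls (log2 after 24 h -1.85, -2.50 to -1.27; adjusted p = 1.89e-11), though its 72 h call (log2 -0.76) was lost without replicate 2 of 72 h (adjusted p = 0.263) and without replicate 2 of control (adjusted p = 0.114). COL20A1 gained signal: its site at chromosome 20, 63303798 to 63304738, near the chromosome end, had 20.3 and 15.5 CPM in control, 35.4 and 37.7 after 24 h, 133 and 145 after 48 h and 61.4 and 64.8 after 72 h. The treated libraries were all higher and peaked after 48 h (log2 2.94, 2.64 to 3.26; adjusted p = 8.32e-66).

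Within the same group, COL16A1 had 2 of its tested sites lower at each time, not always the same ones. Upstream of its start by 8843 bp (chromosome 1, 31712682 to 31713039) control held 37.1 and 45.8 CPM, 24 h 35.9 and 30.7, 48 h 20.9 and 25.7 and 72 h 16.4 and 18.5, so that libraries of 48 h and 72 h were below control (log2 -0.82, adjusted p = 0.000165, and -1.24, -1.76 to -0.75, adjusted p = 4.10e-07). In the gene, 31669940 to 31670424 fell from 24.0 and 24.1 CPM to 9.24 and 8.08 after 24 h (log2 -1.46, -2.06 to -0.92; adjusted p = 3.29e-08). COL19A1 rose at chromosome 6, 69917963 to 69918201, from 6.08 and 7.59 CPM to 26.7 and 16.7 after 24 h (log2 1.68, 1.14 to 2.25; adjusted p = 1.48e-09). The promoter site of COL12A1 with the 2 CACCT copies printed above was not called after 24 h or 72 h (log2 0.07 and 0.03). At 48 h, with 40.9 and 43.0 CPM against 30.1 and 27.4 in control, its log2 of 0.54 (adjusted p = 0.00903) was lost under DESeq2 (adjusted p = 0.175) and without replicate 2 of 48 h (adjusted p = 0.0903).

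Transmembrane collagens, which are anchored in the cell surface, had 17 tested sites, with 5 lower and 5 higher after 24 h, 2 and 5 after 48 h and 1 and 5 after 72 h. Lower and higher calls were 29.4% and 29.4% of the class, 11.8% and 29.4%, and 5.88% and 29.4%. For all tested sites the shares were 26.8% and 28.0%, 16.9% and 16.8%, and 17.0% and 18.9%. COL13A1, found at focal adhesions and neuromuscular junctions, held both directions within 1 gene. At chromosome 10, 69819765 to 69820020, signal rose from 12.5 and 11.5 CPM to 40.02 and 40.4 after 24 h, 27.0 and 24.9 after 48 h and 36.3 and 31.5 after 72 h, above both controls throughout (log2 1.74, 1.34 to 2.15; adjusted p = 3.03e-17 after 24 h). Farther along the gene, 69869270 to 69869707 fell from 44.9 and 37.9 CPM to 20.5 and 15.1 after 24 h, 26.3 and 22.7 after 48 h and 29.4 and 28.7 after 72 h, below both controls throughout (log2 -1.22, -1.63 to -0.83; adjusted p = 2.16e-10 after 24 h). The summed signal of COL13A1 was 93.9%, 96.8% and 100.4% of control. COL23A1, near the end of chromosome 5, reached 261%, 446% and 379% of a low control sum of 11.6 CPM.

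Multiplexins are basement membrane collagens whose ends release antiangiogenic fragments. COL18A1, the source of endostatin, fell inside the gene at chromosome 21, 45427352 to 45428024, near the chromosome end: 64.9 and 70.6 CPM in control, 24.6 and 17.8 after 24 h, 38.6 and 36.2 after 48 h and 45.0 and 37.0 after 72 h. Each treated library was below both controls (log2 after 24 h -1.66, -2.03 to -1.32; adjusted p = 1.10e-23), and the gene's sum was 37.3%, 75.9% and 70.4% of control. Its promoter site (45455432 to 45455630, spanning a start site) went from 8.40 and 10.6 CPM to 2.05 and 2.16 after 24 h (log2 -2.13, -3.44 to -1.09; adjusted p = 9.26e-06), and held 6.95 and 6.80 after 48 h and 5.19 and 2.78 after 72 h. COL15A1 gained at chromosome 9, 99050363 to 99050996, with 18.8 and 18.8 CPM in control, 48.2 and 37.2 after 24 h, 71.1 and 63.4 after 48 h and 83.9 and 82.4 after 72 h. It climbed at each time without overlap (log2 1.18, 1.83 and 2.14, the last 1.81 to 2.49; adjusted p = 3.79e-31), while the gene as a whole, with 12 sites, was at 111%, 106% and 120% of control.

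COL8A1 and COL8A2 encode the short-chain collagen of vessel walls and the cornea. COL8A1 had 28.4 and 28.7 CPM at its strongest site in control (chromosome 3, 99638460 to 99638708, 10 bp outside the gene), 15.9 and 14.0 after 24 h, 23.2 and 27.9 after 48 h and 53.7 and 53.7 after 72 h. It was below control after 24 h (log2 -0.93, -1.38 to -0.49; adjusted p = 3.35e-05) and above it after 72 h (log2 0.91, 0.57 to 1.25; adjusted p = 2.09e-06). COL8A2's strongest site (chromosome 1, 36099679 to 36100263) had 46.0 and 45.5 CPM in control, 12.3 and 22.1 after 24 h, 33.2 and 39.3 after 48 h and 44.1 and 60.2 after 72 h. It too was lowest after 24 h (log2 -1.42, -1.83 to -1.03; adjusted p = 8.88e-14) and rose from there to 72 h (log2 1.60, 1.15 to 2.06; adjusted p = 1.03e-11), where its libraries lay on either side of control. Of the 12 tested sites of this class, 4 were lower and 3 higher after 24 h, 1 and 2 after 48 h and 0 and 3 after 72 h.

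COL7A1 encodes the anchoring fibrils that tie the epidermal basement membrane to the dermis. The strongest site linked to any collagen gene in control lay 6958 bp beyond it (chromosome 3, 48556805 to 48557425) and nearer to PFKFB4, with 146 and 160 CPM in control, 60.04 and 62.5 after 24 h, 112 and 101 after 48 h and 92.6 and 101 after 72 h. All treated libraries were below control (log2 -1.32 after 24 h, -1.53 to -1.11; adjusted p = 5.05e-36), as were those of 24 h at the neighbouring site 48558282 to 48558555 (29.3 and 31.7 CPM against 4.11 and 10.8; log2 -2.04, -2.67 to -1.47; adjusted p = 1.10e-14). The promoter site of COL7A1, 526 bp before its start, had 72.4 and 72.9 CPM in control and 72.9 and 66.8 after 24 h (log2 -0.06, -0.28 to 0.16; adjusted p = 0.695). COL26A1 had 23.2 and 25.4 CPM at its strongest site in control (chromosome 7, 101402160 to 101402446), 20.5 and 21.6 after 24 h, 29.4 and 24.2 after 48 h and 40.7 and 33.3 after 72 h. It was not called after 24 h (log2 -0.20; adjusted p = 0.389) and was higher after 72 h (log2 0.62, 0.21 to 1.01; adjusted p = 0.00858). That call was lost without replicate 1 of 72 h (adjusted p = 0.231), without replicate 1 of control (adjusted p = 0.0592) and under DESeq2 (adjusted p = 0.169), and log2 was -0.89 when scaled to the background floor. With COL28A1, these genes had 15 tested sites, 5 lower and 2 higher after 24 h, 2 and 1 after 48 h and 4 and 3 after 72 h.

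Genes that make, process and sense collagen were followed from a list of 37, which had 132 tested sites. At 24 h 31 of these were lower and 34 higher (23.5% and 25.8%, against 26.8% and 28.0% of all tested sites), after 48 h 15 and 15 (11.4% each, against 16.9% and 16.8%), and after 72 h 24 and 20 (18.2% and 15.2%, against 17.0% and 18.9%). Enzymes and chaperones of synthesis and folding had 14 lower and 15 higher of 63 after 24 h, those of cleavage and crosslinking 12 and 6 of 38, and receptors 5 and 13 of 31 (16.1% and 41.9%). ITGA2, the alpha chain of a collagen-binding integrin of epithelia, gained at chromosome 5, 53005043 to 53005235, from 2.32 and 2.97 CPM to 24.1 and 19.9 after 24 h (log2 3.04). DDR1, a collagen-binding receptor kinase, lost signal at chromosome 6, 30886110 to 30886609, from 54.4 and 62.7 CPM to 22.1 and 25.9 (log2 -1.28), and ITGA10, another integrin chain, from 136.1 and 137.2 CPM to 89.3 and 88.9 (log2 -0.62). These 3 sites were chosen for the smallest p at 24 h among the 132. In all 3 the 24 h libraries did not overlap control, which that choice favours.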

How the data were processed

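ZEB1 CUT&RUN libraries (2 of control, 2 each after 24, 48 and 72 h) were read from a deposited table of counts in 52981 consensus sites on hg38, made by the authors with featureCounts from Bowtie2 2.2.6 alignments, per the submitters' processing notes. No source used here says if single reads or whole fragments were counted. The authors' peak lists (MACS2 2.1.1, per the same notes), 1 per condition, hold a fold enrichment, a −log10 p and a score for each peak. The fold and −log10 p served to recover the background floor of each list, and the deposited score was not used. No value column was without a sample.

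Collagen genes came from RefSeq (GRCh38). The members, the classes and the list of 37 pathway genes were chosen with earlier results of these data known. Counts were tested with edgeR 4.0.16 (R 4.3.3; quasi-likelihood, TMM, default count filter, 46436 sites) in 1 fit of all 8 libraries, with Benjamini-Hochberg adjustment over all tested sites. The common dispersion was 9.766e-05. CPM are TMM-scaled, and condition values pool both libraries. Chromosome ends were taken from the outermost annotated gene or site. Counts were also simulated for 24 h against control (43906 sites). The fit recovered 18 of the 60 sites given a 1.5-fold difference, 33 of the 62 given 2-fold and 56 of the 65 given 4-fold. There were 5 false calls. The other tested sites were not changed, unlike in the data, where many were called.

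Sites were named by rule: the strongest site of each fibrillar, type IV and type VI gene and of the 2 genes with most sites in other classes, up to 5 of the largest called differences in each direction and time among sites with at least median signal and libraries that did not overlap control, and 3 pathway sites by p. The further sites of COL1A1, COL5A1, COL5A2 and COL6A1 and the promoter sites were added after their values were seen. So were further sites of COL11A2, which are not in the counts of calls that changed under alternatives. Same-numbered libraries did not deviate together (r from -0.00449 to 0.0133 over all sites). Alternatives were DESeq2 1.42.0 (test and size factors), other scalings, an assumed coefficient of variation, other filters and windows, a replicate block, and leaving out each library. Figures used matplotlib 3.10.9.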

Additional observations from a re-analysis of the deposited data

Results flagged for a closer look

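At 2 collagen sites the calls after 24 h and after 72 h had opposite directions. At the COL4A2 site on chromosome 13, 110347411 to 110348295, log2 against control was -0.29 after 24 h and 0.92 after 72 h, and 72 h exceeded 24 h by 1.21 (95% interval 1.01 to 1.42; edgeR adjusted p = 8.79e-29). Its 24 h call was lost without replicate 1 of 24 h (adjusted p = 0.057). At the COL8A1 site on chromosome 3, 99638460 to 99638708, the values were -0.93 and 0.91, and 72 h exceeded 24 h by 1.84 (1.37 to 2.32; edgeR adjusted p = 1.36e-14). The 72 h values of both sites were below control when scaled to the background floor (-0.58 and -0.59). The cause was not tested.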

How the results depend on the processing

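Counts of collagen calls depended on the test and the scaling, and the cause was not tested. With DESeq2's test, 25 sites were lower and 22 higher after 24 h, 9 and 19 after 48 h, 12 and 18 after 72 h, and 8 fell and 20 rose from 24 h to 72 h. With an assumed coefficient of variation of 0.2, lower calls numbered 26, 7 and 12 after the 3 times, and 9 fell and 18 rose from 24 h to 72 h. Scaled to the background floor, 90 were lower and 9 higher after 24 h, 115 and 13 after 48 h, 107 and 5 after 72 h, and 57 fell and 16 rose between times. Without sites near chromosome ends, fewer sites were tested: 17 were higher after 48 h, 18 lower and 19 higher after 72 h, and 24 rose between times. Leaving out 1 library in turn gave 36 to 44 lower and 32 to 44 higher sites after 24 h, 15 to 25 and 25 to 33 after 48 h, 21 to 30 and 22 to 33 after 72 h, and 13 to 27 falls and 25 to 38 rises between times. The median of type IV sites, as a difference from that of all sites, turned to 1.13 after 24 h and 0.026 after 48 h without sites near chromosome ends, and was -0.22 after 48 h with no filter on low counts. That of fibrillar sites was 0.53 after 24 h within 1 kb of genes, and that of type VI sites -0.64 after 24 h with no filter. Type VI has no value without chromosome ends, since all its sites lie there. Over left-out libraries these differences ran from 0.13 to 0.29, -0.15 to 0.06 and -0.31 to -0.22 for fibrillar sites after 24, 48 and 72 h, from -0.28 to -0.20, -0.29 to -0.085 and -0.49 to -0.25 for type IV, and from -0.99 to -0.29, 0.27 to 0.90 and 0.47 to 0.999 for type VI. Of 120 calls at named sites, the replicate block changed 0, DESeq2's test lost 46, the assumed variation lost 53, and each left-out library lost 4 to 19. Floor scaling lost 22 and reversed 17, by its own construction: COL5A2 189440985 (-0.24), COL11A2 (-0.64), COL15A1 98989320 (-0.58) and COL6A2 (-0.035) after 24 h; COL4A2 110347411 (-0.84), COL4A4 (-0.60), COL6A2 (-0.087), COL23A1 (-0.16), COL13A1 69819765 (-0.31) and COL12A1 (-0.88) after 48 h; COL4A2 110347411 (-0.58), COL4A4 (-0.28), COL8A1 (-0.59), COL26A1 (-0.89), COL13A1 69819765 (-0.00549), COL19A1 (-0.57) and COL6A1 45995776 (-0.53) after 72 h. When a peak had to cover 50% of a site, a choice made after seeing the data, 15 collagen sites had a peak in all 4 lists instead of 32. At this depth 18 of 60 simulated 1.5-fold differences were recovered, in a simulation where few sites were changed. In the data 26.8% and 28.0% of all tested sites were called lower and higher after 24 h. The adjusted p depends on the share of changed sites, so the simulation does not give the detection rate in these data.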

Other observations

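COL21A1 and COL22A1 encode 2 further fibril-associated collagens. Summed signal of COL21A1 was 162% of control after 24 h, 97.8% after 48 h and 67.4% after 72 h, and that of COL22A1 136%, 872% and 510%. COL14A1, another fibril-associated collagen, was at 292%, 124% and 389% of control. The control sums of COL22A1 and COL14A1 were low, at 3.86 and 5.86 CPM, against 48.4 CPM for COL21A1. No test was made of these sums.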
